A study of Mus musculus with 12 samples.

Results

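The genes described here encode 10 proteins of the platelet alpha granule that act in coagulation, adhesion and matrix turnover. They are F13a1, F5, Vwf, Mmrn1, Thbs1, Serpine2, Timp3, Clu, Sparc and Selp. They were found as probe sets with 1 gene symbol in the array's annotation, and each gene was represented by its brightest probe set, of 30142 named genes in all. A probe set was matched for 9 of the 10, with 1 probe set each, and all 9 passed the filter on dim genes. For Serpine2, which encodes the thrombin inhibitor protease nexin 1, expression was not analysed here.

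RNA was measured on 12 one-colour arrays of megakaryocytes grown from bone marrow hematopoietic stem cells of male C57BL/6 mice. Each of 6 cultures was divided between 100 nM dexamethasone, a synthetic glucocorticoid, for 6 h (6 arrays) and its vehicle for the same time (6 arrays). Before that, all cells had spent 3 days in thrombopoietin at 100 ng per ml and a night in medium with 10% charcoal-stripped serum, and day 4 cells had been purified on an albumin gradient. Cultures are numbered here by the labels' replicate numbers 1 to 6, shared by both treatments. The sample descriptions also carry culture numbers of their own, which are 1, 4, 5, 6, 7 and 8 for replicates 1 to 6 and are not used here. The sources used here do not say whether each culture came from its own mice.

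Alpha granules are the most abundant storage compartment of platelets. Megakaryocytes load them with proteins of their own synthesis and with proteins taken up from plasma, and pass them to the platelets they release. On activation the granules fuse with the surface, release clotting and adhesive proteins and expose P-selectin, so transcript levels in the megakaryocyte bear on the proteins that platelets of that cell can carry. Glucocorticoids act through a nuclear receptor that binds DNA and raises or lowers transcription of its targets.

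The labelled cell type was checked against markers. All 9 megakaryocyte markers with a probe set (Itga2b, Pf4, Ppbp, Gp9, Gp5, Gp6, Gata1, Nfe2 and Tubb1) lay above the 95th percentile of the array's negative control probe sets on 12 of 12 arrays. With dexamethasone 2 of these 9 rose, Gp9 (0.44) and Gata1 (0.29), 1 fell, Tubb1 (-1.14), and 6 did not pass, the same counts as among the alpha granule genes below. The percentile lay between 9.98 and 10.39 on the log2 scale, and the negative control median between 6.15 and 6.39. Of the markers of other cells, 7 of 11 endothelial, 7 of 13 monocyte and macrophage, 5 of 10 mast cell and basophil, 3 of 12 neutrophil, 2 of 4 erythroid and 11 of 11 stromal genes were under the negative control median on every array. A few were bright. The macrophage lysozyme gene Lyz2 was at 17.52 ± 0.06 in dexamethasone and 17.46 ± 0.10 in vehicle arrays (SD, n = 6 each). Of the neutrophil genes, S100a8 was at 11.85 ± 1.56 in dexamethasone and 12.36 ± 1.19 in vehicle arrays, and S100a9 at 11.77 ± 1.49 in dexamethasone and 12.55 ± 1.01 in vehicle arrays. From the endothelial list, Esam was at 11.39 ± 0.15 in dexamethasone and 10.96 ± 0.06 in vehicle arrays. All 9 glucocorticoid targets listed rose, with a median change of 2.09, among them Tsc22d3 (2.48, SE 0.06, limma adjusted p = 7.49e-08) and Fkbp5 (2.37, SE 0.09, limma adjusted p = 7.52e-07). That list was chosen with earlier results of these data known, so its count is a description and not a test.

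With dexamethasone, 2 of the 9 alpha granule genes rose, 1 fell and 6 did not pass the threshold of an adjusted p under 0.05. On the deposited scale F13a1 rose 1.42-fold, Timp3 rose 1.23-fold and Thbs1 fell by 16.2%. Vwf, Mmrn1 and Selp, which encode hallmark alpha granule proteins, differed by 0.03, -0.07 and -0.04 on the log2 scale and did not pass. Of all 24265 genes tested, 12.0% passed, 7.39% higher and 4.56% lower, so 3 of 9 is a larger share than over all genes. Most members are bright, however, and of the 3367 tested genes above the negative control 95th percentile on all 12 arrays 26.6% passed, 16.2% higher and 10.3% lower. All members but Sparc, 8 genes, were among these, and 3 of the 8 passed, a count near that share. As deposited, the median change of the 9 genes was 0.05, against -0.01 over all genes tested. Their median absolute change was 0.14, against 0.08. Dim genes are part of both comparisons. Among the 13050 genes above the negative control median on at least 6 arrays, the median change was 0.03. Neither median was set against the bright genes alone. In bulk RNA, fewer cells that express a gene and less of its RNA per cell cannot be told apart.

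**Figure D1:**
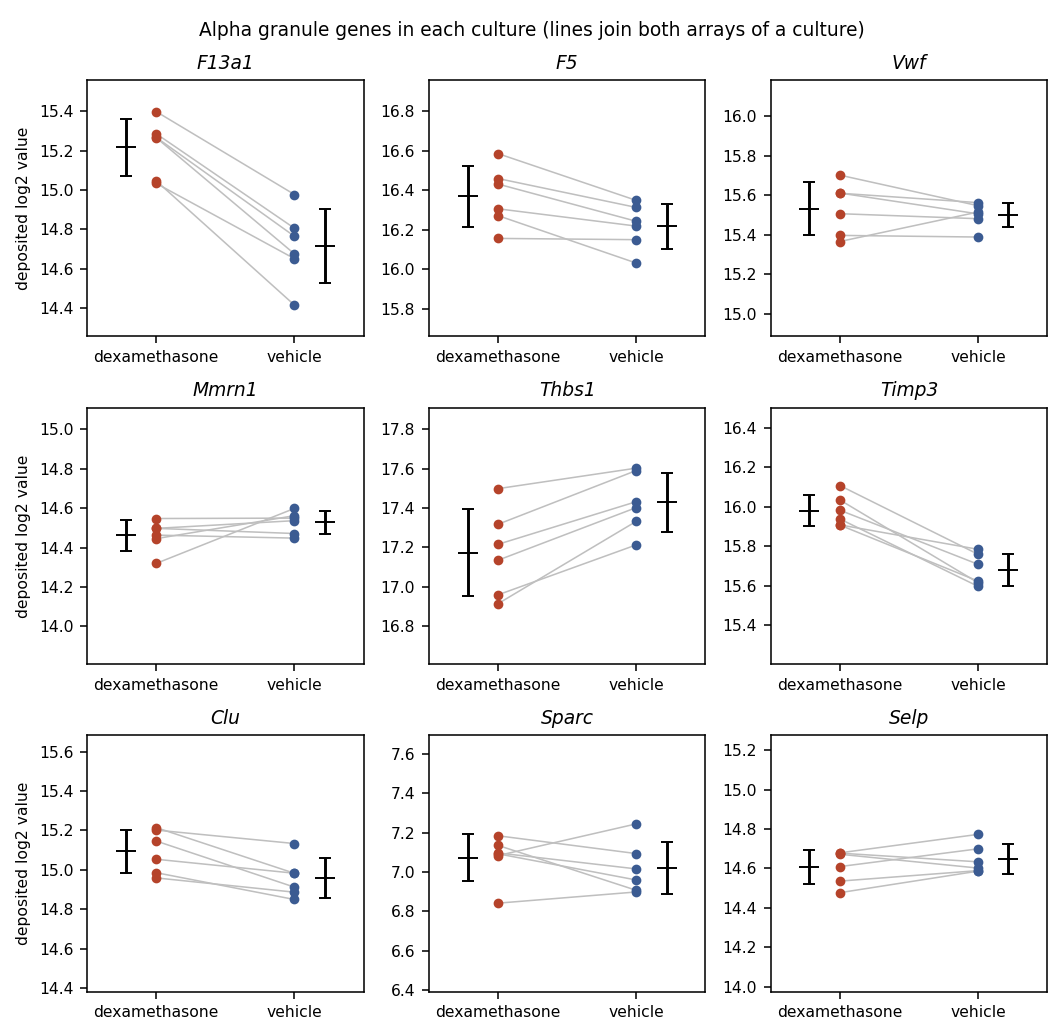
Deposited log2 value of the 9 alpha granule genes in the dexamethasone (left, red) and vehicle (right, blue) array of each of 6 cultures. Grey lines join both arrays of 1 culture, black bars give mean and SD (n = 6), and every panel spans the same height. The groups do not overlap for F13a1 and Timp3, and every line for Thbs1 is lower on the dexamethasone side.

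F13a1 encodes the catalytic A subunit of coagulation factor XIII, the transglutaminase that cross-links fibrin and so hardens a clot. Its start region is shown because it is the member that changed most. RefSeq gives it more than 1 start, and the bases before each are printed with matches to the motifs searched in capitals. The first lies on chr13:37050245-37050494 and the second on chr13:37049214-37049463 of GRCm38.p6, both on the minus strand.
F13a1 outer start: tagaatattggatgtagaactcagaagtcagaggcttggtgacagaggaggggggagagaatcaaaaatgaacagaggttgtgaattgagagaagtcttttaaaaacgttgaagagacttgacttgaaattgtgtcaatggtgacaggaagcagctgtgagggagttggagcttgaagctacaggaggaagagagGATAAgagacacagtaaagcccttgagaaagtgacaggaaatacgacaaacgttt
F13a1 inner start: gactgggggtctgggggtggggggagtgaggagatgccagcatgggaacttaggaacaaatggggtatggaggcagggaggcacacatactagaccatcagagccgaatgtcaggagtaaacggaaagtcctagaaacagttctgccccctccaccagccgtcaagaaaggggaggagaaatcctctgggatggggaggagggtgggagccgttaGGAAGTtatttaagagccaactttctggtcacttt
Each window holds 250 bases. The capitals in the outer window mark GATAA, the core bound by GATA factors, with its left end 55 bases before the start, and those in the inner window mark GGAAGT, a core bound by ETS factors, 35 bases before the start. On either strand, GATAA was found in 22.6% and GGAAGT in 19.7% of 32851 promoter windows of the same length.

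The F13a1 level in dexamethasone arrays ran from 15.03 to 15.40 with a median of 15.27, and in vehicle arrays from 14.42 to 14.98 with a median of 14.72. Every dexamethasone array lay above every vehicle array. Groups that did not overlap, in either direction, were seen in 6.73% of all genes tested. The change was 0.50 on the log2 scale (SE 0.05, 95% interval 0.39 to 0.61, limma adjusted p = 0.000239), a fold of 1.42 with an interval from 1.31 to 1.53. F13a1 was higher in 6 of 6 cultures, by 0.38 in culture 6 up to 0.63 in culture 5. Of all genes tested, 19.5% differed in the same direction in 6 of 6 cultures. Culture 5, where the rise was largest, had the lowest F13a1 level of all vehicle arrays. That level is itself subtracted in the difference, so a low vehicle value enlarges the rise by arithmetic alone. Factor XIII-A is also made by macrophages. The mean of 13 monocyte and macrophage markers ran from 6.62 to 6.99 in dexamethasone arrays and from 6.77 to 6.95 in vehicle arrays. It was lower with dexamethasone in 5 of 6 cultures, and of the 13 tested none rose and 1 fell, Ccr2 (-0.42). Of these 13 markers, 7 were under the negative control median on every array. Lyz2, the only 1 above the negative control 95th percentile on every array, was higher in 5 of 6 cultures (0.06) and did not pass. Of the mast cell and basophil list, 2 of 8 were higher and 1 lower. Its mean was 6.10 to 6.27 in dexamethasone arrays and 5.98 to 6.15 in vehicle arrays, higher with dexamethasone in 5 of 6 cultures. The part of either list in the F13a1 result was not tested.

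Over the 12 arrays, the genes whose pattern was most like that of F13a1 were Abhd17b (Pearson r = 0.978), Rnf125 (0.972), Ube2e3 (0.965), Gm20139 (0.960) and Srgn (0.960). The points share the 6 cultures and the treatment, so these values describe the 12 arrays only. Srgn encodes serglycin, the proteoglycan that holds cargo in granules. It averaged 14.26 ± 0.04 in dexamethasone and 14.12 ± 0.07 in vehicle arrays (SD, n = 6 each), a difference of 0.15 (SE 0.04, limma adjusted p = 0.0501), which misses the threshold. Rnf125, which encodes a ubiquitin ligase, rose by 0.50 (SE 0.06, limma adjusted p = 0.00086), and Abhd17b, which encodes a depalmitoylating enzyme, rose by 0.26 (SE 0.05, limma adjusted p = 0.00753).

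F5 encodes factor V, the cofactor that lets factor Xa turn prothrombin into thrombin. Its level was 16.16 to 16.59 in dexamethasone arrays (median 16.37) and 16.03 to 16.35 in vehicle arrays (median 16.23). The dexamethasone array was higher in 6 of 6 cultures, but by only 0.01 in culture 6, and the groups overlapped. The difference of 0.15 (SE 0.05, 95% interval 0.04 to 0.26, limma adjusted p = 0.0771) did not pass. It passed with trend and robust options (adjusted p = 0.0313) and among genes above the negative control median (0.0403), and it was 0.07 after quantile normalization (0.319). Selp, the adjacent protein-coding gene on chromosome 1, encodes P-selectin, the granule membrane receptor that tethers leukocytes to activated platelets. Its level was 14.48 to 14.68 in dexamethasone arrays (median 14.64) and 14.59 to 14.77 in vehicle arrays (median 14.62), a difference of -0.04 (95% interval -0.14 to 0.06, limma adjusted p = 0.622). In each of the 6 cultures the change of F5 exceeded that of Selp, by 0.12 to 0.29 on the log2 scale. This pair was set side by side after the values were seen and was not tested.

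Mmrn1 encodes multimerin 1, a large adhesive protein that in humans binds factor V in the granule. Its level was 14.32 to 14.55 in dexamethasone arrays (median 14.48) and 14.45 to 14.60 in vehicle arrays (median 14.54). The lowest value of both groups was the dexamethasone array of culture 6, which lay 0.28 below its vehicle array, and the other 5 cultures differed by -0.12 to 0.03. The difference of -0.07 (95% interval -0.19 to 0.05, limma adjusted p = 0.465) did not pass. Vwf encodes von Willebrand factor, which bridges exposed collagen and the platelet receptor GPIb. It ran from 15.37 to 15.70 in dexamethasone arrays (median 15.56) and from 15.39 to 15.56 in vehicle arrays (median 15.51), a difference of 0.03 (95% interval -0.08 to 0.15, limma adjusted p = 0.723). It was higher with dexamethasone in 5 of 6 cultures and lower in culture 6, and the difference was -0.04 after quantile normalization. Vwf and Selp are also made by endothelial cells. The mean of 11 endothelial markers ran from 6.18 to 6.26 in dexamethasone arrays and from 6.24 to 6.35 in vehicle arrays. That mean was lower with dexamethasone in 6 of 6 cultures, by 0.04 to 0.14. Of the 11 markers, 7 were under the negative control median on every array. Of the 7 tested, 1 rose, Esam (0.43), and 1 fell, Kdr (-1.01), which had the largest change in the list. The mean thus does not describe these markers as a class, and their part in the results was not tested. 

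Thbs1 encodes thrombospondin 1, an adhesive glycoprotein that binds CD36 and CD47 and can activate latent TGF-beta. Its level in dexamethasone arrays ran from 16.91 to 17.50 with a median of 17.18, and in vehicle arrays from 17.21 to 17.60 with a median of 17.42. The groups overlapped, since the dexamethasone arrays of cultures 2, 3 and 4 lay above the vehicle array of culture 5. Within cultures, however, the dexamethasone array was lower in 6 of 6, by 0.10 in culture 2 up to 0.42 in culture 6. Thbs1 fell by 0.26 on the log2 scale (SE 0.05, 95% interval -0.37 to -0.14, limma adjusted p = 0.0114). The call rests on the comparison within cultures: the adjusted p was 0.128 with no replicate block and 0.0651 with culture as a random effect, and -0.33 was the change after quantile normalization. Of the genes of CD36 and CD47, Cd47 rose by 0.32 (SE 0.05, limma adjusted p = 0.00218), and Cd36 was under the negative control median on each of the 12 arrays. Other receptors of thrombospondin 1 are not singled out here.

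**Figure D2:**
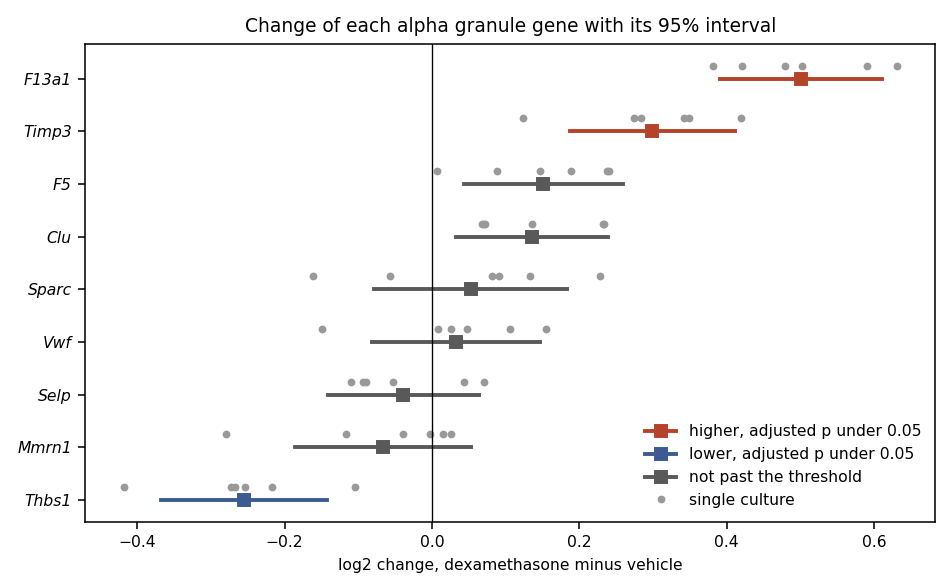
Change of each alpha granule gene, dexamethasone minus vehicle, on the log2 scale. Squares give the fitted change, bars its 95% interval and grey points the 6 cultures. F13a1 (0.50) and Timp3 (0.30) passed as higher and Thbs1 (-0.26) as lower, and the intervals of F5 and Clu exclude 0 without passing the threshold after adjustment over all genes.

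Timp3 encodes a matrix-bound inhibitor of metalloproteinases and of the shedding enzyme ADAM17. Its start region is shown as that of the other gene that rose, and Sparc's as the one member window with the hexamer that the glucocorticoid receptor binds in pairs. The windows lie on chr10:86300162-86300411 (plus strand) and on chr11:55420081-55420330 (minus strand) of GRCm38.p6, 250 bases each.
Timp3: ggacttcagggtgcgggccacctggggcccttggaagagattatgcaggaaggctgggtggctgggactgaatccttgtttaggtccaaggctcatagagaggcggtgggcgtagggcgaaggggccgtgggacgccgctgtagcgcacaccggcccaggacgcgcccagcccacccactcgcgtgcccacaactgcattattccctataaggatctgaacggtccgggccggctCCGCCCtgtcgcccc
Sparc: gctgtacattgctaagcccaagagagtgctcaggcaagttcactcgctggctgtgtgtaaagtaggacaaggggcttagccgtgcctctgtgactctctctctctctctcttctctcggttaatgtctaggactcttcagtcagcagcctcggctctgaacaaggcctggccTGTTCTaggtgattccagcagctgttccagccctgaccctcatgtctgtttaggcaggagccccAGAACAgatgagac
The capitals in Timp3 mark a GC box, GGGCGG, read on the opposite strand with its left end 15 bases before the start. Those in Sparc mark AGAACA, the hexamer, 78 bases before the start on the opposite strand and again 14 bases before it. In the member windows searched, of 7 genes, AGAACA was found in Sparc and in none of the others, and the spaced pair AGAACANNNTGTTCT in none. Vwf, Thbs1 and Clu had no window in the source used here and were not searched. On either strand, AGAACA was found in 16.1%, GGGCGG in 32.7% and the spaced pair in 0.0091% of the 32851 windows. These are matches of letters in a short window. Mmrn1 held both GATAA and GGAAGT, and F5 and Serpine2 held GGGCGG.

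The Timp3 level in dexamethasone arrays ran from 15.91 to 16.11 with a median of 15.96, and in vehicle arrays from 15.60 to 15.78 with a median of 15.67. The groups did not overlap, and the dexamethasone array was higher in 6 of 6 cultures, by 0.12 in culture 6 up to 0.42 in culture 2. Timp3 rose by 0.30 on the log2 scale (SE 0.05, 95% interval 0.19 to 0.41, limma adjusted p = 0.00519), a fold of 1.23 with an interval from 1.14 to 1.33. Among enzymes that TIMP3 can inhibit, Adam17 fell by 0.16 (SE 0.04, limma adjusted p = 0.0448), and Adam10, a related sheddase, rose by 0.22 (SE 0.05, limma adjusted p = 0.0328). Adam17 lay above the negative control 95th percentile on only 1 of 6 dexamethasone and 1 of 6 vehicle arrays, and Adam10 on all. The relatives Timp1, Timp2 and Timp4 were dimmer than the negative control median on 12 of 12 arrays.

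Clu encodes clusterin, a secreted chaperone. It ran from 14.96 to 15.21 in dexamethasone arrays (median 15.10) and from 14.85 to 15.13 in vehicle arrays (median 14.95). The groups overlapped, and the dexamethasone array was higher in 6 of 6 cultures, by 0.07 to 0.23. The difference of 0.14 (SE 0.05, 95% interval 0.03 to 0.24, limma adjusted p = 0.0938) did not pass, and it passed with trend and robust options (0.0429).

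Sparc encodes a collagen-binding matrix protein (osteonectin) that human platelets store in alpha granules. Here it stood apart from the other members: it lay above the negative control median but below the negative control 95th percentile on 12 of 12 arrays, whereas the other 8 genes lay above that percentile on every array. Its level was 6.84 to 7.18 in dexamethasone arrays (median 7.09) and 6.90 to 7.24 in vehicle arrays (median 6.99), a difference of 0.05 (95% interval -0.08 to 0.18, limma adjusted p = 0.601). At this signal a change of its transcript may not have shown.

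The levels also moved with the culture. Among vehicle arrays, culture 5 had the lowest value for 7 of 9 members (F13a1, F5, Vwf, Mmrn1, Thbs1, Timp3 and Clu). It was the lowest array for 8.97% of the 3367 bright genes and for 5 of 9 megakaryocyte markers. Among dexamethasone arrays, culture 6 was lowest for 7 of 9 members (F13a1, F5, Vwf, Mmrn1, Thbs1, Clu and Selp). That compares with 38.1% of the bright genes and 3 of 9 megakaryocyte markers. In dexamethasone arrays culture 2 was highest for 4 of 9 members, against 22.7% of the bright genes and 5 of 9 megakaryocyte markers. The mean of the 9 megakaryocyte markers was also low in culture 5, at 15.14 in its dexamethasone array and 15.18 in its vehicle array, against 15.19 to 15.42 in the other dexamethasone arrays and 15.26 to 15.40 in the other vehicle arrays. The mean of 12 neutrophil markers was 6.17 to 7.12 in dexamethasone arrays and 6.59 to 7.36 in vehicle arrays, lowest in culture 2 in both. It was lower with dexamethasone in 6 of 6 cultures, by 0.06 to 0.42, and of the 11 genes tested 4 fell and none rose. The part of these markers in the results was not tested.

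**Figure D3:**
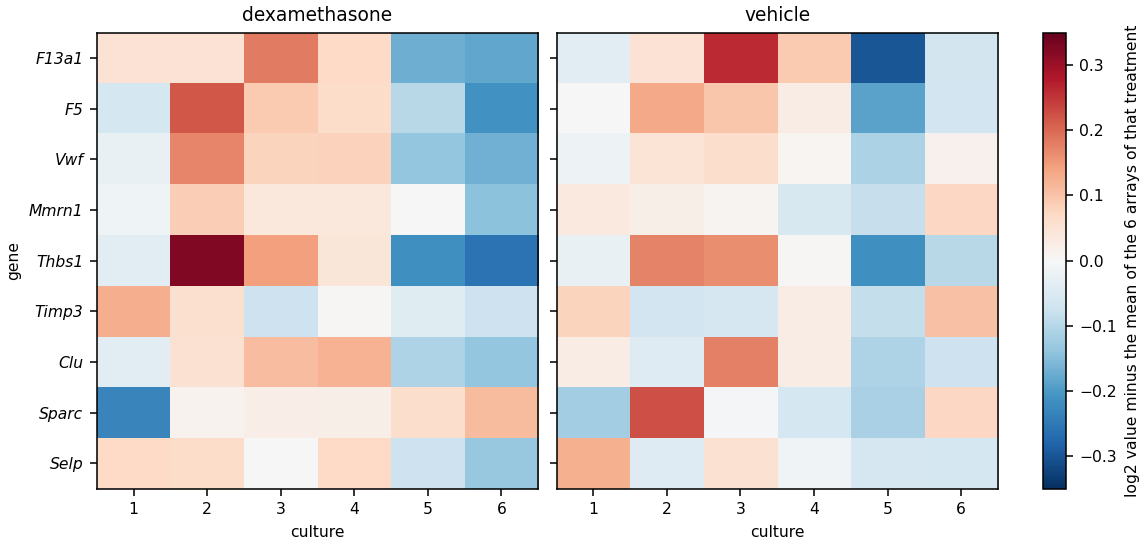
Log2 value of each gene on each array minus the mean of the 6 arrays of the same treatment, for dexamethasone (left) and vehicle (right). Red is above and blue below that mean, and the columns are cultures 1 to 6. For 7 of 9 genes the lowest array was culture 6 in dexamethasone and, for another set of 7 that shares 6 of them, culture 5 in vehicle.

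Other genes of the granule and of its pathways split. Of 26 further alpha granule cargo genes tested, 5 rose, 6 fell and 15 did not pass, with a median change near 0. These calls made up 42.3% of the list, against 12.0% of all genes tested and 26.6% of the bright genes. Hgf, a growth factor for epithelial and endothelial cells, rose by 0.82 (SE 0.07, limma adjusted p = 0.000163) but stayed under the negative control 95th percentile on every array. Pdgfa, a mitogen of connective tissue cells, counted among the rises (limma adjusted p = 0.000399) at 6.38 ± 0.11 in dexamethasone and 5.90 ± 0.05 in vehicle arrays (SD, n = 6 each), but 4 of 6 dexamethasone and 0 of 6 vehicle arrays lay above the negative control median, so no fold is given. Angpt1, which stabilises vessels, fell by 0.75 (SE 0.06, limma adjusted p = 5.13e-05), and the chemokine gene Cxcl5 fell by 0.45 (SE 0.05, limma adjusted p = 0.000477).

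Of 27 coagulation and fibrinolysis genes, 4 rose, 1 fell and 22 did not pass, with a median change of 0.01. The share that passed was 18.5%, against 12.0% of all genes tested and 26.6% of the bright genes. Tgm2, a tissue transglutaminase of the same enzyme family as F13a1, rose by 0.64 (SE 0.06, limma adjusted p = 0.000143), and S100a10, a plasminogen receptor subunit, rose by 0.44 (SE 0.05, limma adjusted p = 0.000581). F8, the cofactor related to factor V, rose by 0.38 (SE 0.06, limma adjusted p = 0.00402). These 3 genes lay below the negative control 95th percentile on all arrays. The remaining rise was that of Tfpi2, an inhibitor of tissue factor pathway proteases (limma adjusted p = 0.0353), which was under the negative control median on every array. The 1 fall, named outside the rule for named genes after its value was seen, was that of F2rl2, which encodes the thrombin receptor PAR3 of mouse platelets, by 0.21 (SE 0.05, limma adjusted p = 0.0265). F13b, the gene of the carrier subunit of factor XIII, was under the negative control median on every array, as were Tfpi2 and 16 others of the 32 genes with a probe set.

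Of 24 matrix and matricellular genes, 2 rose, 2 fell and 20 did not pass, with a median change of -0.04. With 16.7% passing, this compares with 12.0% of all genes tested and 26.6% of the bright genes. Besides Adam10 and Adam17 the called genes were Emilin1, an elastic fibre protein of the multimerin family, which rose by 0.39 (SE 0.06, limma adjusted p = 0.00275), and Ccn1, a matricellular ligand of integrins, which fell by 0.54 (SE 0.06, limma adjusted p = 0.000433). Both lay below the negative control 95th percentile on all arrays. Thbs3 and Thbs4, relatives of Thbs1, and Sparcl1, the relative of Sparc, were under the negative control median on every array.

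Of 25 genes of granule sorting and the secretory pathway, 1 rose, 3 fell and 21 did not pass, with a median change of 0.05. Lman1, the cargo receptor that carries factors V and VIII out of the endoplasmic reticulum, fell by 0.26 (SE 0.05, limma adjusted p = 0.0153), and Rab27b, a small G protein of granule secretion, fell by 0.27 (SE 0.04, limma adjusted p = 0.00351). Gfi1b, a repressor whose mutation in humans reduces alpha granules, fell by 0.23 (SE 0.06, limma adjusted p = 0.0347). Unc13d, a priming factor of granule release, rose by 0.26 (SE 0.05, limma adjusted p = 0.0141). Of these 4, Lman1 and Unc13d lay below the negative control 95th percentile on all arrays.

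Of 21 receptors and partners of the member proteins, 4 rose, 2 fell and 15 did not pass, with a median change of 0.01. That 28.6% passed compares with 12.0% of all genes tested and 26.6% of the bright genes. Gp9, a subunit of the von Willebrand factor receptor, was at 16.33 ± 0.15 in dexamethasone and 15.90 ± 0.12 in vehicle arrays (SD, n = 6 each) and counted among the rises. Lrp8, an apolipoprotein E receptor that can bind clusterin, rose by 3.39 (SE 0.09, limma adjusted p = 1.26e-07), and Cd44, a receptor for hyaluronan, rose by 0.29 (SE 0.05, limma adjusted p = 0.00412). The falls, named outside the rule for named genes after their values were seen, were those of Selplg and Itgb1. Selplg changed by -0.19 (SE 0.04, limma adjusted p = 0.0183) and Itgb1 by -0.18 (SE 0.04, limma adjusted p = 0.0230).

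**Figure D4:**
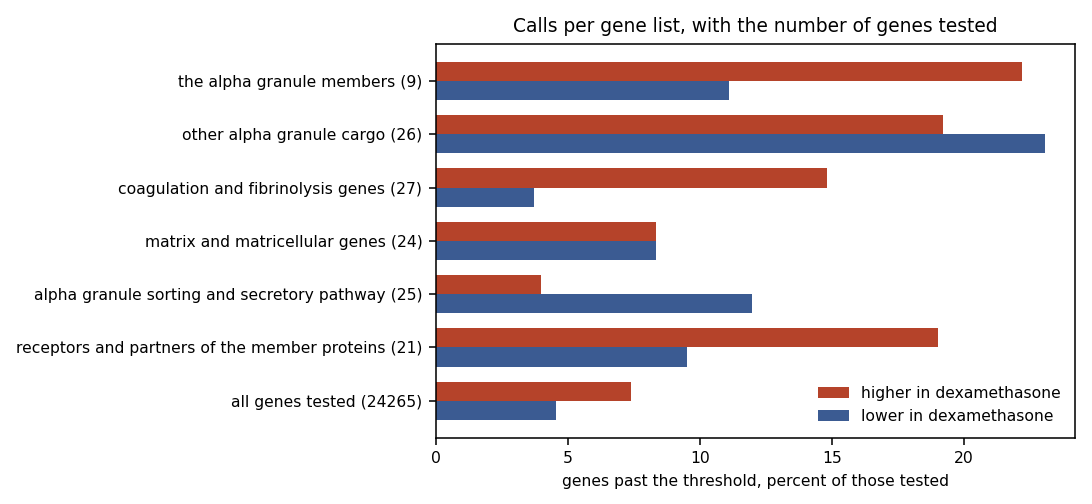
Share of the tested genes of each list past the threshold, in percent, with the number tested in brackets. Red bars are genes higher and blue bars genes lower in dexamethasone. Of all 24265 genes, 7.39% were higher and 4.56% lower. The 3367 bright genes, of which 16.2% were higher and 10.3% lower, have no bar.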

How the data were processed

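Total RNA (50 ng) was amplified over the whole transcript and labelled with biotin, per the labels' protocols. The authors' deposited values are log2 values of 72688 probe sets, a scale read from their range of 2.07 to 19.93. The sources used here do not give background correction, normalization or array software. Array medians lay within 0.0992 of each other, so values were used as deposited. The number of arrays limits the precision.

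Probe sets with 1 gene symbol (30604) were named through the platform annotation, with symbols updated by gene number through RefSeq (GRCm38.p6), which also gave the promoter windows. Of several probe sets of a gene, the brightest on average over 12 arrays was kept. Genes above the 25th percentile of their array on at least 6 arrays were tested with limma 3.58.1 in R 4.3.3 (lmFit, eBayes, two-sided), with culture as a block and Benjamini-Hochberg adjustment over all genes. The script was tested on simulated data. The block follows from the labels' treatment protocol, which says that each culture was divided. Deviations from the group means correlated at 0.0493 to 0.247 between both arrays of a culture and at -0.0316 on average between cultures. Named were all members and, of each list, up to 4 called genes with the largest change. Alternatives were other scaling, filters, blocks, eBayes options, probe set summaries and leaving out each culture. Members, lists and motifs were chosen with earlier results of these data known. The shares of bright genes were added after seeing the members' levels.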

Additional observations from a re-analysis of the deposited data

Results flagged for a closer look

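Within each treatment, the highest and lowest of the 6 values of every member were set against the others with Dixon's test, over 18 groups of values. Of these, 1 stood apart. Sparc on the dexamethasone array of culture 1 was at 6.84, and its gap to the nearest other dexamethasone array took 0.706 of the range of the group, above Dixon's critical value at 95%. Chance flags about 1 in 20 such groups. The vehicle array of culture 1 was also the lowest vehicle array for Sparc, at 6.90, and both values lay below the 95th percentile of the negative controls.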

How the results depend on the processing

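The rises of F13a1 and Timp3 passed under all 15 alternatives run, with changes of 0.44 to 0.52 and of 0.25 to 0.33. The fall of Thbs1 passed under 13 of 15. It was lost with no replicate block (adjusted p = 0.128) and with a random replicate block (0.0651), so 0 members were called lower there, with 4 and 5 members at an unadjusted limma p under 0.05. With no replicate block no other member's call changed. F5 and Clu passed with trend and robust options, which gave 4 members called higher. F5 alone was added among genes above the negative control median. The Vwf difference was -0.0381 after quantile normalization and kept its sign under the other 14 alternatives. Leaving out each culture in turn gave 2 members higher and 1 lower every time, with Thbs1 at -0.29 to -0.22. Over all genes it gave 1164 to 1520 higher and 712 to 853 lower. Calls over all genes were 1794 higher and 1106 lower as deposited. Of these calls 61.9% were higher, against 44.9% after quantile normalization (1738 lower) and 70.3% after centring on medians (726 lower). The median change of all genes moved by less than 0.1 between scalings. After quantile normalization, however, the change of each of the 9 members was lower than as deposited. F5 moved from 0.15 to 0.07, Mmrn1 from -0.07 to -0.14 and Selp from -0.04 to -0.09. Sparc, whose change was the members' median as deposited, moved from 0.05 to 0.005. The small differences of members thus depended on the scaling. Each member had 1 probe set, so the median over probe sets changed no member's value. Signal over background limits what could be seen for Sparc alone among the 9 members.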
